A study of Mus musculus with 6 samples.

Results

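The genes described here encode proteins of the complement, coagulation and plasminogen systems, in left ventricles of mice after myocardial infarction. They were chosen by symbol: 21 complement genes, 7 coagulation genes and 3 genes of the plasminogen system, 31 of the 17556 genes measured. All 31 were found under these symbols, and all 31 passed the filter on low counts that left 13817 genes for testing. The rule used no measured value.

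Bulk RNAseq had been done on 6 left ventricles, 3 from Cre-positive and 3 from Cre-negative mice. Cre-positive mice carried floxed Yap on both alleles, floxed Wwtr1 on 1 allele and 1 copy of MerCreMer at the endogenous periostin locus (PostnMCM). MerCreMer is a Cre recombinase that works only in the presence of tamoxifen, and the periostin promoter drives it in myofibroblasts, the matrix-producing fibroblasts of a healing infarct. Cre-negative mice were siblings with the same floxed Yap and Wwtr1 alleles and wild-type periostin. Mice of both genotypes, aged 6 to 10 weeks, underwent permanent ligation of the left anterior descending coronary artery and ate a tamoxifen citrate diet from the end of surgery. Ventricles were taken at 4 days post injury (dpi). The comparison therefore asks whether transcripts of these plasma and immune pathways differ in the infarcted ventricle when Cre is present in myofibroblasts. An uninjured ventricle, and a PostnMCM ventricle without floxed alleles, were not part of the comparison, so the presence of Cre and its insertion at 1 periostin copy cannot be told apart from the loss of Yap and Wwtr1. Each library comes from a whole ventricle, in which myofibroblasts are a part of the cells.

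Complement is a cascade of plasma proteases. C1q, with the proteases C1r and C1s, binds antibody complexes or dying cells and starts the classical pathway, in which C4 and C2 form an enzyme that cleaves C3. Factors B and D and properdin form and stabilise the corresponding enzyme of the alternative pathway. Fragments C3a and C5a attract leukocytes through their receptors, C7 belongs to the pore that forms at the end of the cascade, and inhibitors such as C1 inhibitor, Cd55 and Cd59 restrain it on host cells. Clotting begins when tissue factor binds factor VII, and thrombomodulin, the protein C receptor, protein S and tissue factor pathway inhibitor hold it back. The plasminogen activators tPA and uPA make plasmin, which dissolves fibrin. Much of the plasma pool of these proteins is made in liver, while C1q is a known product of macrophages and factor D of adipocytes.

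Estimated counts summed to between 13177888 and 14827579 per ventricle, and a count of 0 allows up to 3 counts, or at most 0.228 per 1000000 counts (counting error only). The library labelled Cre-negative 1 stood apart. Its 5 pairs with the other ventricles had a chi-square per gene of 42.5 to 65.6, against 7.86 to 16.5 for the 10 pairs among the rest. The genes touched by the alleles were examined as a check of the labels. Yap1 had 1547, 1473 and 1419 normalized counts in Cre-negative ventricles (replicates 1, 2 and 3, an order kept below) and 1615, 1436 and 1474 in Cre-positive ones. Normalized counts are counts scaled by edgeR's TMM factors to the mean library size. Wwtr1 had 1616, 1463 and 1604 against 1614, 1559 and 1661. Counts over a whole gene in a whole ventricle cannot show loss of floxed exons from myofibroblasts, so neither gene checks the genotype. Postn, the gene into which MerCreMer was inserted, had 12157, 24639 and 26862 normalized counts in Cre-negative ventricles and 12682, 14240 and 13486 in Cre-positive ones. The library labelled Cre-negative 1 was thus below every Cre-positive ventricle for Postn, which goes against its label, and results that rest on it are given with and without it. Markers of the labelled tissue were present in all ventricles, here given in TPM, a level per transcript length that sums to the same total in every library. Sums of cardiomyocyte and fibroblast markers did not overlap between the groups. Taken gene by gene in TPM, 15% of all tested genes lay higher in Cre-positive ventricles without overlap and 2.44% lower. The 7 cardiomyocyte markers summed to 47732 to 57645 TPM in Cre-negative and 43071 to 46531 TPM in Cre-positive ventricles. All 7 had a negative log2 fold change over the 6 ventricles. Without the library labelled Cre-negative 1, Tnnt2, Myl2, Tnni3 and Pln were still lower in every Cre-positive ventricle by normalized counts. Myh6, Actc1 and Ryr2 overlapped, Ryr2 with 10591 and 10406 against 12741, 9891 and 10615. The 6 fibroblast markers summed to 3392 to 5245 against 5263 to 6132 TPM, and 5 of them had a positive log2 fold change. That sum was held mostly by Col1a1 and Col1a2, and in normalized counts each of the 6 overlapped between the groups. Without the library labelled Cre-negative 1, Dcn, the marker with a negative estimate, had 11233 and 9757 normalized counts against 11478, 8930 and 12258. In each list 0 genes had an adjusted p under 0.05 by edgeR, and the part of these cell types in the values below was not tested. The library labelled Cre-negative 1 had the highest cardiomyocyte sum (57645 TPM) and the lowest fibroblast sum (3392 TPM). It was also lowest for 5 smooth muscle markers (481 TPM). The part of its cell content in its low Postn was not tested.

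None of the 31 genes differed between genotypes at an adjusted p under 0.05 by edgeR's quasi-likelihood test with Benjamini-Hochberg adjustment over all genes. Of all tested genes 0.00724% did so, which is 1 gene. At an unadjusted p under 0.05 the count among the 31 was also 0, against 5.83% of all tested genes (2.85% higher and 2.98% lower in Cre-positive ventricles). DESeq2 called 0 members by adjusted or by unadjusted p. The lowest adjusted p among them was 0.714, that of C5ar1 and of F3. In bulk tissue, fewer cells of a type and less RNA per cell cannot be told apart, and nothing in the labels says more of the replicates than that they are separate ventricles.

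The estimates lay on either side of 0, with a positive log2 fold change (Cre-positive over Cre-negative) for 18 genes and a negative one for 13. Complement genes had a median log2 fold change of 0.05 and ranged from -0.60 (C7) to 0.35 (Cfb). The 7 coagulation genes had a median of -0.10 and the 3 plasminogen genes one of 0.19. The complement median ranged from -0.08 (without Cre-positive 1) to 0.13 when 1 ventricle was left out and was 0.18 by limma on either TPM scale. The coagulation median turned sign, to 0.06, without the library labelled Cre-negative 1, and was 0.04 by limma on either TPM scale. The plasminogen median was 0.071 without Cre-negative 2, and 0.306 and 0.314 by limma. Over all tested genes the median was 0.01 by edgeR, and 0.11 and 0.12 by limma on the 2 TPM scales. The 95% interval lay within 1.5-fold of no difference for 15 of the 31 genes and within 2-fold for 23, which leaves 8 genes for which a 2-fold difference is inside the interval. Without the library labelled Cre-negative 1, there were again 0 genes with an adjusted p under 0.05. In that setting 4 had an unadjusted p under 0.05 (C1qa, C1qb, Cd59a and Procr), or 4 of 31 where 6.59% of all tested genes passed. The sign of the estimate turned without that library for C4b (0.25), Cfd (0.0625), Cfp (-0.027), C3ar1 (-0.16), Serping1 (0.0297), Masp1 (-0.0002), Vsig4 (0.36), F13a1 (0.10) and Thbd (0.21). Estimates that kept their sign and lay above 0.2 without it were those of C1ra (0.21), C1s1 (0.54), C2 (0.64), C3 (0.67), Cfb (0.52), Cd59a (0.84), Procr (0.43) and Plat (0.22). Those that kept their sign and lay below -0.2 were C1qa (-0.29), C1qb (-0.27) and C1qc (-0.23).

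**Figure D1:**
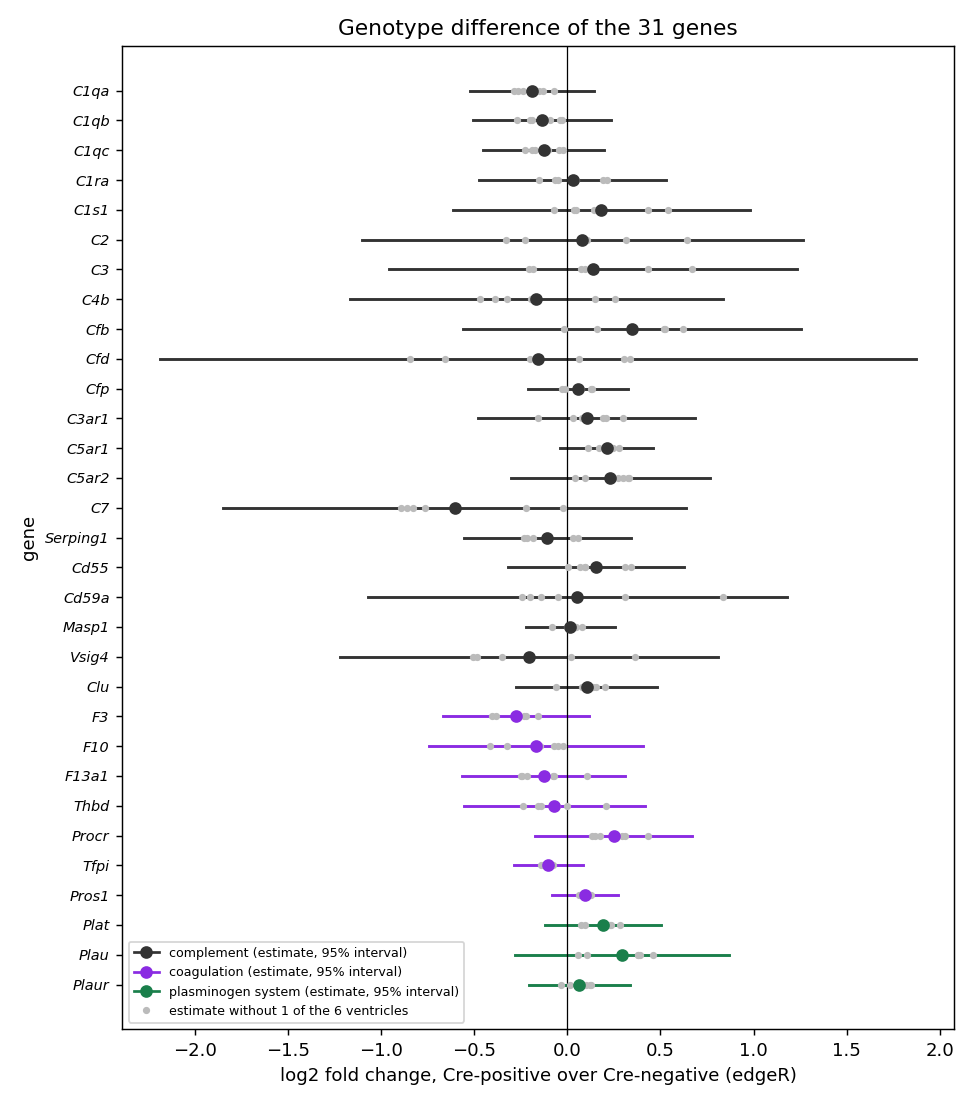
Each row is a gene and the x axis is its log2 fold change, Cre-positive over Cre-negative, from edgeR; large points are estimates with 3 ventricles a genotype, lines their 95% intervals, and grey points the estimates with 1 ventricle left out. All 31 intervals cross 0, the narrowest being those of Pros1 and Tfpi and the widest that of Cfd, from -2.19 to 1.87.

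Separation of the genotypes was rare. Normalized counts of the Cre-positive ventricles lay above all Cre-negative ones for 1 of the 31 genes (C5ar1), where 7.53% of all tested genes did so. They lay below for 0 genes, where 6.87% of all tested genes did. Without the library labelled Cre-negative 1 the genotypes did not overlap for 6 of the 31 genes, against 23.9% of all tested genes: C5ar1, Cd59a and Procr were higher, and C1qa, C1qb and C1qc were lower, in the 3 Cre-positive ventricles than in the remaining 2. The count also moved with the scale: in TPM the Cre-positive ventricles lay above all Cre-negative ones for 3 of the 31 genes (C5ar1, Procr and Plaur), where 15% of all tested genes did so, and below for 0 (2.44%). This comparison was added after the data had been seen.

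Variation between single ventricles was wider than for genes at large. The highest ventricle exceeded the lowest by a median of 1.65-fold for the 31 genes and 1.43-fold for all tested genes. Of the variance in log2 normalized counts, a median of 6.72% lay between the genotypes for the 31 genes and 18.1% for all tested genes. By group this median was 5.29% for complement, 28.9% for coagulation and 19.6% for the plasminogen system, so only complement lay below that of all genes. These values are descriptions and were not tested. The library labelled Cre-negative 1 was the highest of the 6 for 13 of the 31 genes, and for 30.8% of all tested genes. Cre-positive 2 was the lowest for 11 members (18.0% of all tested genes) and Cre-negative 3 for 8 (12.4%).

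**Figure D2:**
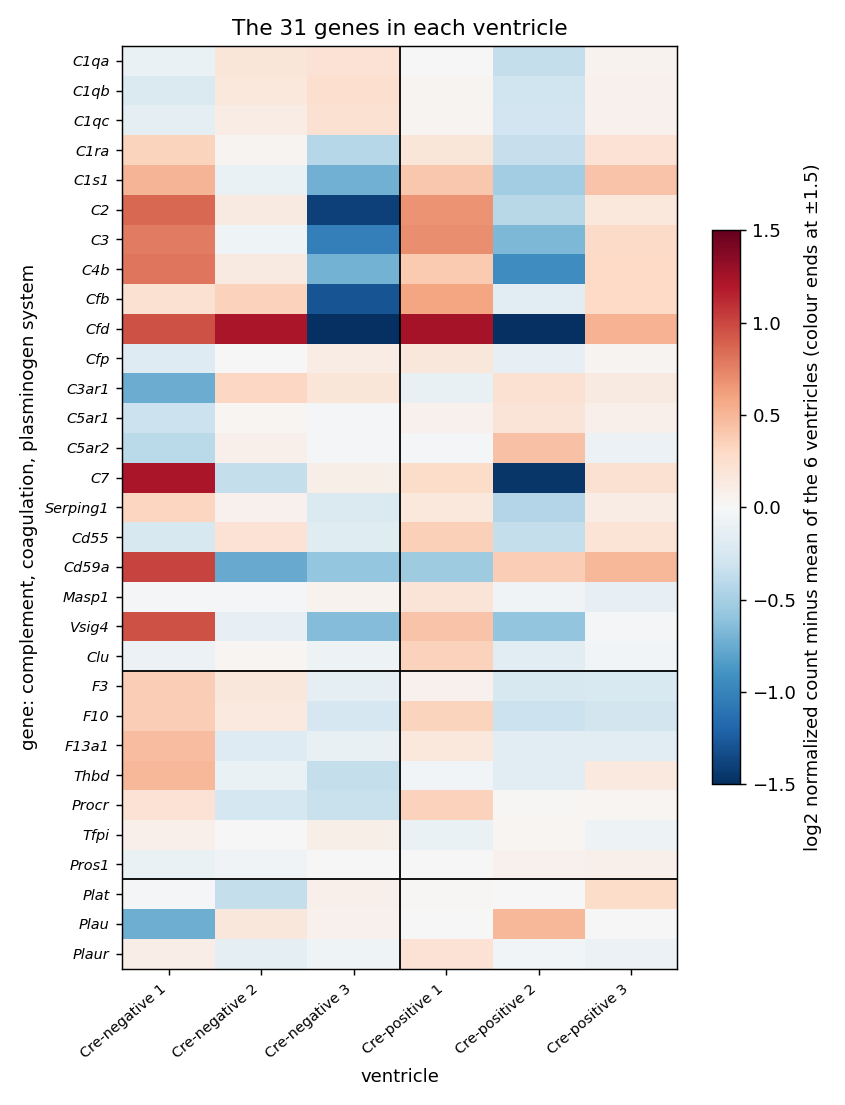
Rows are the 31 genes, grouped as complement, coagulation and plasminogen system, and columns the 6 ventricles; colour is the log2 normalized count minus the gene's mean over the 6, ending at 1.5 either way. C2, C3, C4b, C1s1 and Vsig4 are red in the library labelled Cre-negative 1 and in Cre-positive 1 and blue in Cre-negative 3 and Cre-positive 2, and Cfd has the widest range.

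The genes of C1q, the recognition molecule of the classical pathway, were the most abundant complement genes after Clu and varied in parallel. Their 3 chains are encoded side by side on chromosome 4 (RefSeq, GRCm38.p6): C1qb (gene number 12260) at chr4:136880126-136886200, C1qc (12262) at chr4:136889801-136892936 and C1qa (12259) at chr4:136895916-136898844. Gaps of 3601 and 2980 bases separate the neighbours, with no coding gene between them. C1r and C1s, the proteases carried by C1q, are encoded by another neighbouring pair, C1ra (50909) at chr6:124512621-124523440 and C1s1 (50908) at chr6:124530344-124542392, 6904 bases apart on opposite strands. The promoters of these pairs are shown because the genes of each pair are neighbours whose values moved together across the ventricles. Each window runs from 250 bases before to 50 after the transcription start in RefSeq, 5′ to 3′ on the strand of the gene. Windows were found for 21 of the 31 genes, C1qa not among them. The transcription starts used for C1qc and C1s1 lie 22 and 33 bases from the 5′ ends of the RefSeq genes. Capitals mark matches to 2 motifs, searched on both strands: GAGGAA (reverse TTCCTC), a core bound by ETS factors such as PU.1, and GGAATG (reverse CATTCC), the type bound by TEAD, the DNA partner of Yap and Taz.
C1qb, minus strand, chr4:136886151-136886450: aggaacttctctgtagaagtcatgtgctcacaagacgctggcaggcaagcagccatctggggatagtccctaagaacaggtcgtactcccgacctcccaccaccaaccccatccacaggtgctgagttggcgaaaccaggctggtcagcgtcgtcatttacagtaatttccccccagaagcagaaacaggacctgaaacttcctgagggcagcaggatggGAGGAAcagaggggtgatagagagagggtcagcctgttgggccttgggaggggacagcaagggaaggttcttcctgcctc
C1qc, minus strand, chr4:136892865-136893164: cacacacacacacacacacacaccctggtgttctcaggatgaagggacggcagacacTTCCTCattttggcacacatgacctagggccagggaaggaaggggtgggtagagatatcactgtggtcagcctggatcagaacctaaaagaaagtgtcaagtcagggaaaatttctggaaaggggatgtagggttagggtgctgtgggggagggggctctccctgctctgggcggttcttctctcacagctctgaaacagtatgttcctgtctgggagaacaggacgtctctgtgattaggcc
C1ra, plus strand, chr6:124512371-124512670: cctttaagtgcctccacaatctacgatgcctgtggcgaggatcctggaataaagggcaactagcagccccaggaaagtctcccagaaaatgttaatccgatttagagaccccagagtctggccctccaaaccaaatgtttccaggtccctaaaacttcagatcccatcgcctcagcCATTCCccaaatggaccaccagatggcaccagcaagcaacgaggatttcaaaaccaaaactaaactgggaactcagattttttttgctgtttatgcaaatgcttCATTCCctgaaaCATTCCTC
C1s1, minus strand, chr6:124542310-124542609: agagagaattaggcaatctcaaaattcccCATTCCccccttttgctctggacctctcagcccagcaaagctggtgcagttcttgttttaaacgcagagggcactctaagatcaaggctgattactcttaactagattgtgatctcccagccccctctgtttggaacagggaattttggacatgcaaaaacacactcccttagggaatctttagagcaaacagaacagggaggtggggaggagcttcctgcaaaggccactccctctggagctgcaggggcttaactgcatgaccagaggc

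GAGGAA occurred in 9 of the 21 windows and in 28.3% of 27025 RefSeq promoters of the same length. C1qb held it at -30 on its own strand, and C1qc held the reverse at -193. GGAATG occurred in 2 of the 21 windows, those of C1ra and C1s1, and in 14.7% of all promoters. In C1ra the reverse stood at -74, 31 and 43, the last overlapping TTCCTC at 45. In C1s1 it stood at -221. A match is a description of these letters, not a bound site.

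C1qa had 4909, 5981 and 6131 normalized counts in Cre-negative and 5311, 4128 and 5484 in Cre-positive ventricles. C1qb had 5916, 7718 and 8234 against 7117, 5609 and 7199. C1qc had 4463, 5323 and 5760 against 5057, 4031 and 5161. In all 3 genes the order of the ventricles was the same, with Cre-negative 3 highest, Cre-positive 2 lowest and the library labelled Cre-negative 1 second lowest, so the genotypes overlapped. That order was found in 0.116% of all tested genes. The log2 fold changes were -0.19 (SE 0.14) for C1qa, -0.13 (SE 0.16) for C1qb and -0.13 (SE 0.14) for C1qc, with edgeR adjusted p of 0.724, 0.807 and 0.795. Without the library labelled Cre-negative 1, C1qa had a log2 fold change of -0.29 (SE 0.12, unadjusted p = 0.0438, adjusted p = 0.742 by edgeR) and C1qb one of -0.27 (SE 0.12, unadjusted p = 0.0479, adjusted p = 0.751). Without Cre-positive 2, the lowest for all 3, the estimates were -0.073 for C1qa, -0.027 for C1qb and -0.021 for C1qc.

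Pearson's r between log2 values of the C1q chains over the 6 ventricles was 0.957 for C1qa with C1qb, 0.978 for C1qa with C1qc and 0.987 for C1qb with C1qc. Each had an exact two-sided permutation p of 0.00139, the smallest that 6 ventricles can give, and an adjusted p of 0.00417 over 12 pairs of partner genes. All 12 pairs, those given below among them, were picked after the values had been seen. Their p-values are therefore descriptive, and no arbitrary gene pairs were set beside them. Spearman's rho was 1 for each pair (exact permutation p = 0.00278, adjusted p = 0.00833). Leaving out the 2 ventricles farthest from the median gave r between 0.925 and 0.977. On the TPM scale C1qb stood at 1.31 to 1.44 times C1qc, and C1qa at 0.993 to 1.09 times C1qc. The ratio of the chains was thus kept within narrow limits in every ventricle. Macrophage markers are given beside these values because macrophages are a known source of C1q. The 8 markers summed to 1868, 2879 and 3170 TPM in Cre-negative and 2730, 2719 and 3034 TPM in Cre-positive ventricles. None of the 8 was at 0 in any ventricle, 5 had a positive log2 fold change and 0 had an adjusted p under 0.05. On the TPM scale the library labelled Cre-negative 1 was lowest and Cre-positive 2 second lowest, for the list and for each C1q chain. C1qa had 559 and 571 TPM there, C1qb 688 and 793, and C1qc 524 and 575. In normalized counts Cre-positive 2 was lowest for C1q. Lyz2 held most of the list's sum. Cre-positive 2 was second lowest for Lyz2 and Cd14, but not for the other markers, and was highest for Adgre1 (72.9 TPM). The part of macrophage number in the C1q values was not tested.

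C1ra and C1s1 followed another order of the ventricles than C1q, which Thbd shared. C1ra had 917, 752 and 542 normalized counts in Cre-negative and 831, 575 and 848 in Cre-positive ventricles. C1s1 had 1599, 1041 and 680 against 1484, 781 and 1500. Both were highest in the library labelled Cre-negative 1 and lowest in Cre-negative 3, with Cre-positive 2 next to last. Log2 fold changes were 0.03 (SE 0.22, adjusted p = 0.975) for C1ra and 0.18 (SE 0.34, adjusted p = 0.881) for C1s1 by edgeR. Their r was 0.983 over the 6 ventricles (exact permutation p = 0.00139, adjusted p = 0.00417) and 0.931 without the 2 farthest. This pair too was picked after the values had been seen. Masp1, which encodes a protease of the lectin pathway related to C1r and C1s, did not share this spread: it had 578, 577 and 610 normalized counts against 673, 569 and 543, a log2 fold change of 0.02 (SE 0.10). RSEM divides reads between near-identical genes, so C1ra and C1s1 can share reads with C1rb and C1s2. Estimated counts were whole in 3 ventricles for C1ra and in 1 for C1s1. C1rb itself had 0 to 6.29 normalized counts and C1s2 1.94 to 9.90.

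C2, C3 and C4b, whose products build and feed the enzyme that cleaves C3, varied far more between ventricles than between genotypes. C3 (gene number 12266, chr17:57203967-57228136), the protein on which all complement pathways converge, had 10175, 5710 and 2916 normalized counts in Cre-negative and 9621, 3744 and 7284 in Cre-positive ventricles, a 3.49-fold range. C2 had 300, 180 and 62 against 264, 124 and 184, a range of 4.82-fold. C4b had 2659, 1681 and 938 against 2013, 800 and 1886, a range of 3.32-fold. All 3 were highest in the library labelled Cre-negative 1, followed by Cre-positive 1 and then Cre-positive 3, and lowest in Cre-negative 3 and Cre-positive 2. The full order of C2, C3 and Vsig4 was 1 and the same, and 0.478% of all tested genes had it. Between genotypes the log2 fold change was 0.14 (SE 0.47, 95% interval -0.96 to 1.23) for C3, 0.08 (SE 0.51) for C2 and -0.17 (SE 0.43) for C4b, with edgeR adjusted p of 0.941, 0.970 and 0.917. The sign of these estimates depended on the ventricles included: the estimate of C3 ranged from -0.20 to 0.67 when 1 ventricle was left out, and was highest without the library labelled Cre-negative 1.

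The pattern did not rest on the library labelled Cre-negative 1. Without it, C3 still ranged from 2916 in Cre-negative 3 to 9621 in Cre-positive 1. Marker lists are given beside these values. The 5 epicardial and mesothelial markers summed to 107, 49.0 and 29.1 TPM in Cre-negative and 151, 74.6 and 87.4 TPM in Cre-positive ventricles. Their sum was high in Cre-positive 1 and in the library labelled Cre-negative 1 and lowest in Cre-negative 3, as for C3, but Cre-negative 2 was next lowest and not Cre-positive 2. All 5 had a positive log2 fold change and none an adjusted p under 0.05. The 7 neutrophil markers summed to 426, 90.2 and 53.2 TPM against 162, 72.7 and 133 TPM, the order that C2 had on either scale. C3 had this order in normalized counts only. In TPM it had 347, 217 and 110 against 355, 146 and 289, highest in Cre-positive 1. S100a8, S100a9 and Retnlg made up most of the neutrophil sum. Csf3r, another of the 7, had 12.3, 20.5 and 19.8 TPM against 17.4, 20.1 and 25.95 TPM, lowest in the library labelled Cre-negative 1. Ly6g, which defines neutrophils, was at 0 TPM in 4 of the 6 ventricles and reached 2.46 in the library labelled Cre-negative 1. Hepatocyte transcripts were scarce: Alb was between 0 and 0.26 TPM, and Apoa1 and Apoc3 were at or under 3 counts in every ventricle. Ahsg, another liver transcript, was at 28.95 TPM in the library labelled Cre-negative 1 and between 2.67 and 5.04 in the others. Adipoq, a marker of adipocytes, and the 3 atrial markers had the same 2 lowest ventricles as C2, C3 and C4b, with Adipoq at 5.06 TPM in Cre-negative 3 and 3.77 in Cre-positive 2, and the atrial sum at 171 and 55.0 TPM. What part these cells have in the levels of C2, C3 and C4b was not tested.

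C4b and C2 lie in the same stretch of chromosome 17 as Cfb, which encodes factor B of the alternative pathway. C4b (12268) is at chr17:34728139-34743902, Cfb (14962) at chr17:34856374-34862514 and C2 (12263) at chr17:34862602-34882100, with a gap of only 88 bases between Cfb and C2. Over the 6 ventricles r was 0.864 for C4b with C2 (exact permutation p = 0.0264, adjusted p = 0.0528, rho 0.943) and 0.884 without the 2 farthest ventricles. For C3 with Cfb it was 0.841 (exact permutation p = 0.0167, adjusted p = 0.04, rho 0.60), but 0.17 without Cre-negative 3 and Cre-positive 2, so that relation rests on those ventricles. Cfb had 704, 764 and 245 normalized counts in Cre-negative and 904, 537 and 737 in Cre-positive ventricles. Its log2 fold change of 0.35 was the highest of the 31 (SE 0.39, 95% interval -0.56 to 1.25, edgeR adjusted p = 0.796), with Cre-negative 3 far below the rest. Without Cre-negative 3 the estimate was -0.017. C4b is nearly identical to C4a, and none of its 6 estimated counts was whole; C4a had at most 7.41 normalized counts.

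Cfd was the most variable of the 31 genes. It encodes factor D, also called adipsin, the protease that cleaves factor B, and is a classical adipocyte product. Normalized counts were 1637, 1963 and 218 in Cre-negative and 2008, 210 and 1207 in Cre-positive ventricles, a 9.54-fold range. Each genotype held 1 low ventricle, Cre-negative 3 and Cre-positive 2, and these were about equal. The log2 fold change was -0.16 (SE 0.87, 95% interval -2.19 to 1.87, edgeR adjusted p = 0.964), so a difference of 3-fold either way is inside the interval. Adipocyte markers were low in the same ventricles: Adipoq had 39.9, 33.4 and 5.06 TPM against 34.1, 3.77 and 25.3, and Plin1 and Cidec were lowest in those 2 as well. The 6 adipocyte markers together summed to 1059, 1070 and 789 TPM against 803, 891 and 1013 TPM, a sum held mostly by Fabp4, which endothelium also makes. Atrial markers moved with them. Myl7, Myl4 and Sln summed to 1307, 956 and 171 TPM in Cre-negative and 2196, 55.0 and 451 TPM in Cre-positive ventricles. The part of fat or atrial tissue in the dissected ventricles in the Cfd values was not tested. Cfp, the gene of properdin, which stabilises the same enzyme, had 1018, 1171 and 1260 normalized counts against 1313, 1072 and 1206, a 1.29-fold range (log2 fold change 0.06, SE 0.12, adjusted p = 0.890).

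**Figure D3:**
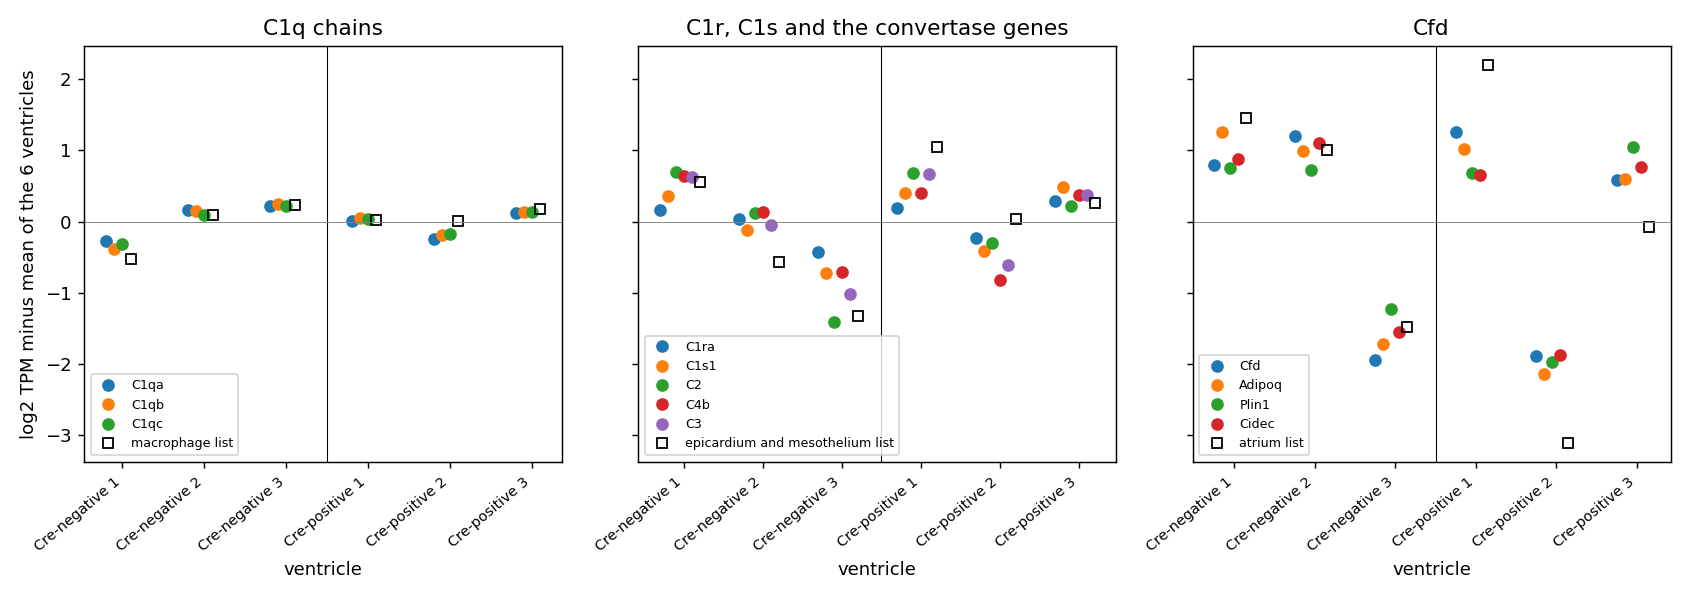
Points are log2 TPM in each ventricle minus the mean of the 6, for the C1q chains, for C1ra, C1s1, C2, C4b and C3, and for Cfd with 3 adipocyte markers; open squares are the summed TPM of a marker list on the same scale. The C1q chains lie together in every ventricle, and Cfd, Adipoq, Plin1 and Cidec are low in Cre-negative 3 and Cre-positive 2.

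Receptors for the complement fragments C3a and C5a sit on myeloid cells. C5ar1, the main receptor for C5a on myeloid cells, was the gene whose genotypes separated in normalized counts, with 678, 860 and 825 normalized counts in Cre-negative and 883, 964 and 892 in Cre-positive ventricles. The gap between the groups, 860 to 883, was small next to the spread within them. The log2 fold change was 0.21 (SE 0.11, unadjusted p = 0.0875, adjusted p = 0.714 by edgeR), and the exact permutation p was 0.1, the smallest that 3 against 3 allows. Without the library labelled Cre-negative 1, which was its lowest, the estimate was 0.11. C5ar2, the second C5a receptor, is its neighbour at a distance of 2589 bases on chromosome 7 and had 53 to 74 normalized counts in Cre-negative and 66 to 96 in Cre-positive ventricles (log2 fold change 0.23, SE 0.23). C3ar1, the receptor for C3a, had 1023, 2118 and 1933 against 1586, 1995 and 1878, with the library labelled Cre-negative 1 lowest, as it was for macrophage markers. Its log2 fold change was 0.10 (SE 0.25, adjusted p = 0.908), and -0.16 without that library.

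Among components of the pore, C7 was the member measured and was scarce. It had 156, 52 and 71 normalized counts in Cre-negative and 81, 24 and 78 in Cre-positive ventricles. Its log2 fold change of -0.60 was the lowest of the 31 genes (SE 0.53, 95% interval -1.85 to 0.64, edgeR adjusted p = 0.752), but it was -0.02 without the library labelled Cre-negative 1, which was its highest. Vsig4, a complement receptor of resident macrophages, was also highest in that library, with 146, 69 and 48 normalized counts against 102, 50 and 74 (log2 fold change -0.21, SE 0.44, adjusted p = 0.895, and 0.36 without that library).

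Regulators of complement showed no difference that passed the test. Serping1, which encodes the C1 inhibitor and is the regulator that blocks C1r and C1s, had 5445, 4577 and 3759 normalized counts in Cre-negative and 4874, 3217 and 4706 in Cre-positive ventricles (log2 fold change -0.11, SE 0.19, adjusted p = 0.876). It shared the order of C4b. Clu, whose product clusterin binds the forming pore, was the most abundant of all 31 genes, with 44935, 48394 and 45236 normalized counts against 60367, 42444 and 46100. Cre-positive 1 was its highest ventricle and Cre-positive 2 its lowest (log2 fold change 0.10, SE 0.16, adjusted p = 0.853). Cd55, which speeds decay of the C3-cleaving enzymes on cell membranes, had 373, 510 and 388 against 566, 343 and 510 (log2 fold change 0.16, SE 0.20, adjusted p = 0.825). Cd59a, which blocks the pore, had 848, 249 and 281 normalized counts against 290, 541 and 592. Here the library labelled Cre-negative 1 was highest and the other 2 Cre-negative ventricles were lowest. The estimate was 0.05 on the log2 scale (SE 0.48, adjusted p = 0.979) over all ventricles, and 0.84 (SE 0.27, unadjusted p = 0.0146, adjusted p = 0.729 by edgeR) without that library. Estimated counts of Cd55 and Cd59a were whole in 0 of 6 ventricles, and reads can be shared with their near copies; Cd59b had 46.0 to 77.3 normalized counts.

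The coagulation genes fell into a clotting group of F3, F10 and F13a1 and an anticoagulant group of Thbd, Procr, Tfpi and Pros1. F3, which encodes tissue factor and starts clotting, had 239, 207 and 167 normalized counts in Cre-negative and 192, 156 and 157 in Cre-positive ventricles. For F3 the log2 fold change was -0.28 (SE 0.17, 95% interval -0.67 to 0.11, edgeR unadjusted p = 0.141, adjusted p = 0.714). Without Cre-negative 3, the lowest of its group, the estimate was -0.40 (unadjusted p = 0.0430, adjusted p = 0.509), and without the library labelled Cre-negative 1, the highest, it was -0.16. F10, the gene of factor X, the protease that makes thrombin, had 130, 112 and 84 normalized counts against 127, 80 and 83 (log2 fold change -0.17, SE 0.25). Without 1 ventricle its estimate ranged from -0.41 (Cre-positive 1) to -0.02 (the library labelled Cre-negative 1). F13a1, whose product crosslinks fibrin and which macrophages and platelets make, had 2312, 1467 and 1545 against 1872, 1492 and 1506 (log2 fold change -0.13, SE 0.19, adjusted p = 0.841, and 0.10 without the library labelled Cre-negative 1). These 3 genes were highest in the library labelled Cre-negative 1. Platelet and megakaryocyte markers summed to 224 to 332 TPM in Cre-negative and 232 to 255 TPM in Cre-positive ventricles, a sum held mostly by Pf4. All 5 had a negative log2 fold change over the 6 ventricles, 0 with an adjusted p under 0.05. Of the 5 only Gp1bb did not overlap between genotypes (log2 fold change -0.54, SE 0.19, adjusted p = 0.714 by edgeR). Of all tested genes 6.87% were lower without overlap, and none of the estimated counts of Gp1bb was whole. Without the library labelled Cre-negative 1, Ppbp had 81.4 and 77.7 normalized counts against 116, 72.0 and 106. The part of platelets and megakaryocytes in the F13a1 values was not tested.

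Of the anticoagulant genes, Pros1 and Tfpi were measured with the least spread of all 31. Pros1, which encodes protein S, had 725, 752 and 786 normalized counts against 781, 815 and 821, a log2 fold change of 0.09 (SE 0.08, 95% interval -0.08 to 0.27, adjusted p = 0.734). Tfpi, the inhibitor of tissue factor, had 926, 880 and 932 against 819, 895 and 835, a log2 fold change of -0.10 (SE 0.08, 95% interval -0.29 to 0.08, adjusted p = 0.727). These were also the genes with the most of their variance between genotypes, 58.6% for Pros1 and 54.9% for Tfpi, although the genotypes overlapped in both. Procr, the endothelial protein C receptor, had 242, 174 and 165 normalized counts against 265, 210 and 214. The log2 fold change of Procr was 0.25 (SE 0.18, unadjusted p = 0.207, adjusted p = 0.722 by edgeR) over all ventricles and 0.43 (SE 0.15, unadjusted p = 0.0176, adjusted p = 0.729) without the library labelled Cre-negative 1, and 0.13 without Cre-positive 1. Thbd, the gene of thrombomodulin, which redirects thrombin to activate protein C, had 1439, 950 and 797 against 992, 911 and 1129 (log2 fold change -0.07, SE 0.21, adjusted p = 0.931, and 0.21 without that library). Endothelium carries Procr and Thbd, and its 7 markers summed to 443 to 557 TPM in Cre-negative and 548 to 627 TPM in Cre-positive ventricles, lowest in the library labelled Cre-negative 1. Of the 7, 6 had a positive log2 fold change and 0 an adjusted p under 0.05. Their part in the Procr values was not tested.

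The estimates of the 3 genes of the plasminogen system were positive over all ventricles, none past the test, but that of Plaur turned to -0.033 without Cre-positive 1. Plat, which encodes tissue-type plasminogen activator (tPA), had 757, 599 and 812 normalized counts in Cre-negative and 777, 770 and 926 in Cre-positive ventricles (log2 fold change 0.19, SE 0.13, 95% interval -0.12 to 0.50, edgeR adjusted p = 0.722, and 0.071 without Cre-negative 2). Plau, the gene of urokinase (uPA), had 232, 437 and 405 against 387, 547 and 384 (log2 fold change 0.29, SE 0.25, adjusted p = 0.745). Its lowest ventricle was the library labelled Cre-negative 1, without which the estimate was 0.06. Plaur, the receptor that holds urokinase on the cell surface, had 434, 371 and 389 against 471, 395 and 383 (log2 fold change 0.06, SE 0.12, adjusted p = 0.875). Plau and Plaur did not vary together, with r of -0.44 over the 6 ventricles (exact permutation p = 0.4125, adjusted p = 0.55, rho -0.31), and -0.55 without the 2 farthest.

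Levels were compared between genes on the TPM scale, which divides by transcript length. Clu was at 3036 to 4556 TPM in the 6 ventricles, above 99.9% of all genes by its mean. C1qb (688 to 1073 TPM), C1qa (559 to 783) and C1qc (524 to 758) followed, and then Serping1 (254 to 360), C3 (110 to 355) and Cfd (33.1 to 306). Clu and C1qb did not overlap in any ventricle, whereas C1qa and C1qc, neighbours in the order, overlapped, as did Serping1 and C3. These 7 genes were the ones with a mean over 100 TPM. A further 19 had a mean between 10 and 100 TPM, and 5 were at 10 TPM or under (C2, Vsig4, F10, C7 and C5ar2). F13a1 (48.8 to 69.2 TPM) and Tfpi (48.1 to 60.2 TPM) were the most abundant coagulation genes, and their levels overlapped.

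**Figure D4:**
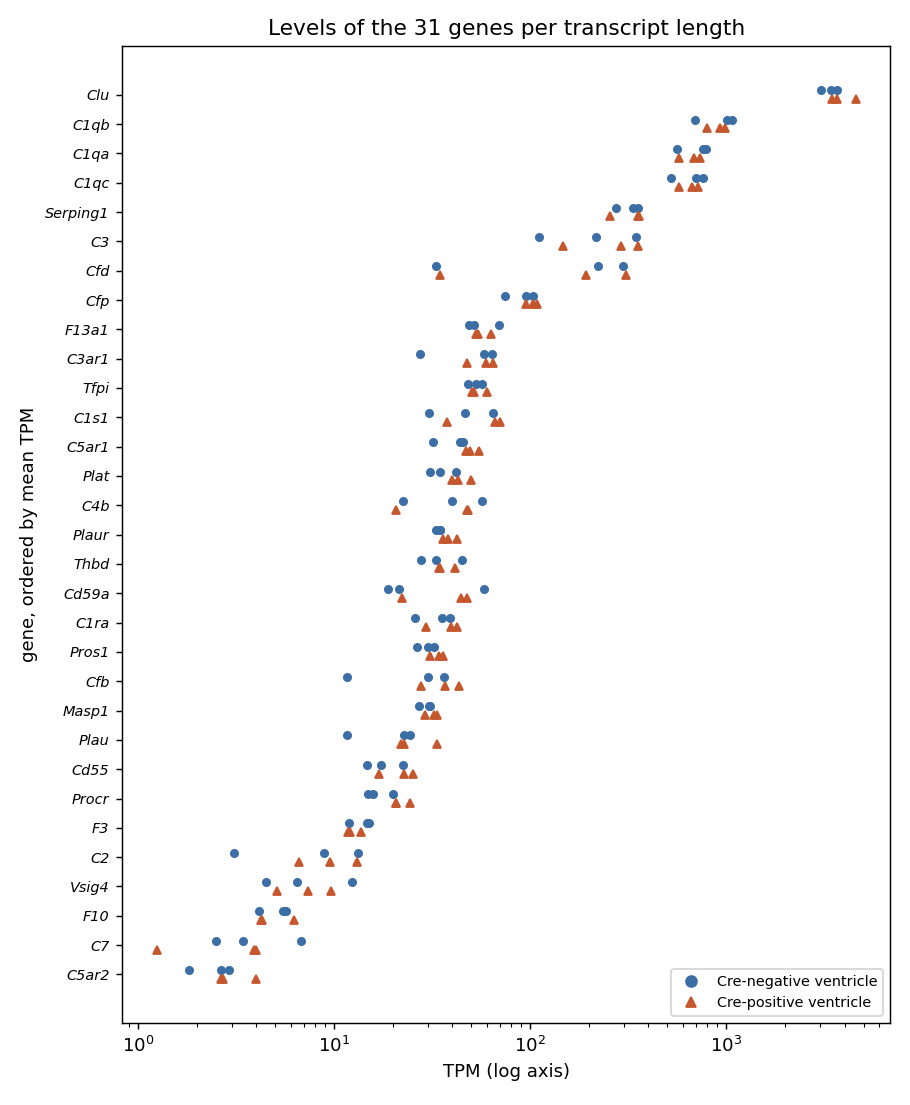
TPM of each gene in each ventricle on a log axis, with genes ordered by their mean; circles are Cre-negative and triangles Cre-positive ventricles. Clu lies between 3036 and 4556 TPM, and in nearly all rows circles and triangles are mixed.

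The rest of these pathways was examined with 83 further genes. Of these, 65 were listed and 42 passed the filter on low counts. By edgeR 0 of the 42 had an adjusted p under 0.05 and 1 had an unadjusted p under 0.05, where 5.83% of all tested genes did. The genotypes did not overlap for 3 of the 42, all higher in Cre-positive ventricles (Lman1, F2rl1 and Anxa2), against 7.53% of all tested genes. Lman1, the gene with an unadjusted p under 0.05, encodes a cargo receptor for the secretion of factors V and VIII. It had 1342, 1350 and 1436 normalized counts in Cre-negative and 1618, 1573 and 1653 in Cre-positive ventricles, which did not overlap (log2 fold change 0.23, SE 0.08, unadjusted p = 0.0199, adjusted p = 0.714). Without 1 ventricle its estimate was between 0.21 and 0.26. Median log2 fold changes were -0.10 for 17 further complement genes, -0.02 for 15 of coagulation and 0.16 for 10 of the plasminogen system.

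Several genes that define these systems in liver were at the limit of detection. F2, the gene of prothrombin, and Fgg, a fibrinogen chain, had at most 0.981 normalized counts, and Fga, another chain, at most 1.99. Hc, which encodes C5, had 0.971 to 7.85 normalized counts and F9 1.17 to 6.87. Transcripts of C5 were thus scarce in ventricles that held C5ar1 at 678 to 964. Vwf, the platelet-binding protein of endothelium, was by contrast at 1473 to 3055 normalized counts in Cre-negative and 1863 to 2441 in Cre-positive ventricles. It did not pass the test by edgeR (adjusted p = 0.953).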

How the data were processed

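Bulk RNAseq of 6 left ventricles (3 Cre-positive, 3 Cre-negative, grouped by the labels) was analysed from the deposited gene table. Per the labels RNA was prepared in TRIzol. The submitters' processing notes name Bowtie2 2.2.5, RSEM 1.2.12 and GRCm38.p6; the annotation, the counting options and the use of strand are not given in the sources used here. The authors deposited estimated counts per gene, which are not normalized and of which 11.46% are not whole, and TPM values, which they scaled to transcript length and to a sum of 1e+06 per ventricle. Deposited FPKM values and the authors' own comparison of genotypes (log2 fold changes, p-values and q-values for 17515 genes) were not used.

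Estimated counts were rounded for edgeR 4.0.16 (R 4.3.3), with filterByExpr (minimum count 10, minimum total 15), TMM scaling, and the quasi-likelihood test of Cre-positive against Cre-negative ventricles with no covariate, with Benjamini-Hochberg adjustment over 13817 genes and a threshold of 0.05. The spread between ventricles used log2 of normalized counts plus 0.5. Alternatives were DESeq2 size factors, DESeq2 1.42.0, no filter, a replicate block, limma 3.58.1 on log2(TPM + 1) and on log2(TPM + 0.1), and leaving out each ventricle. The edgeR step was also run on simulated data, with outcomes that are not given here. Correlations, taken between log2 values, and exact permutation tests (two-sided; 3 against 3 cannot go below 0.1) used scipy 1.17.1 in Python 3.11.15, and figures matplotlib 3.10.9. Library totals of 13177888 to 14827579 set the precision of low genes. Positions and promoters are from RefSeq on GRCm38.p6, in which all 31 genes were found.

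All 31 members were named, and of 83 other pathway genes those with an adjusted p under 0.05, or an unadjusted p under 0.05 and genotypes that did not overlap (Lman1). Other pathway genes were named after their values had been seen. Some items are not reported here. The rule for the members used symbols and no measured value. Members, lists and motifs were nevertheless chosen with earlier results of these data known, so none is independent of those results. Same replicate numbers do not pair the ventricles by any label.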

Additional observations from a re-analysis of the deposited data

How the results depend on the processing

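The result that no member had an adjusted p under 0.05 held in all 12 alternatives, with a lowest adjusted p of 0.509 (F3, without Cre-negative 3). Over all genes 1 was called by edgeR, 5 by DESeq2, 2 and 2 by limma on log2(TPM + 1) and log2(TPM + 0.1), and 0 to 2 without 1 ventricle. At an unadjusted p under 0.05 the count of members was 1 (Procr) and 1 by limma on the 2 TPM scales, where 7.23% and 7.03% of all genes passed, and 0 to 4 without 1 ventricle, where 2.68% to 9.61% did, 4 being without the library labelled Cre-negative 1. Members whose genotypes did not overlap numbered 3 in TPM (added after seeing the data) and 1 to 6 without 1 ventricle, where 21.1% to 28.9% of all genes did not overlap. The plasminogen median was 0.306 and 0.314 by limma on the TPM scales, on which the median of all genes itself moved to 0.11 and 0.12, and 0.071 to 0.283 without 1 ventricle. Of the other pathway genes, 2 had an unadjusted p under 0.05 by DESeq2, 2 with no filter, 4 with the replicate block, 5 and 5 by limma, and 0 to 4 without 1 ventricle. Of all genes 4.8% passed by DESeq2, 5.41% with no filter and 8.81% with the replicate block. The cause of the shifts between settings was not tested.

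In a fit with the replicate number as a block, 0 genes had an adjusted p under 0.05 and 1217 an unadjusted one, against 806 without it; 0 members passed either threshold. Same-numbered ventricles correlated at 0.35, 0.07 and -0.03 in their deviations from the group means, so the numbers were not taken as a pairing.

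The sign of the log2 fold change was kept in all 12 alternatives by 13 of the 31 members. On the TPM scales (pseudocounts 1 and 0.1) it turned for Serping1 (0.00412 and 0.00410), F13a1 (0.0115 and 0.0119), Thbd (0.0832 and 0.0858) and Tfpi (0.0431 and 0.0438), and with 0.1 for Vsig4 (0.00482). Leaving out 1 ventricle turned it for 17 members, with ranges of -0.15 to 0.21 for C1ra, -0.071 to 0.540 for C1s1, -0.33 to 0.64 for C2, -0.20 to 0.67 for C3, -0.47 to 0.25 for C4b, -0.017 to 0.622 for Cfb, -0.85 to 0.34 for Cfd, -0.027 to 0.130 for Cfp and -0.16 to 0.30 for C3ar1. Ranges were -0.232 to 0.060 for Serping1, -0.25 to 0.84 for Cd59a, -0.081 to 0.076 for Masp1, -0.50 to 0.36 for Vsig4, -0.061 to 0.204 for Clu, -0.25 to 0.10 for F13a1, -0.24 to 0.21 for Thbd, -0.033 to 0.126 for Plaur and, outside the members, -0.024 to 0.061 for Yap1. Where the sign was kept when 1 ventricle was left out, ranges included those of C7 (-0.893 to -0.021), F10 (-0.413 to -0.024), Plau (0.059 to 0.460), C5ar2 (0.044 to 0.329) and Cd55 (0.0058 to 0.341). None of these estimates passed the test. Depth does not limit the abundant genes, whereas C7, C5ar2, Vsig4 and F10 have under 200 normalized counts in every ventricle.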
